A study of Mus musculus with 2 samples.

Results

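Syndecans and glypicans are the membrane-bound heparan sulfate proteoglycans, and their 10 mouse genes were Sdc1, Sdc2, Sdc3, Sdc4, Gpc1, Gpc2, Gpc3, Gpc4, Gpc5 and Gpc6. They were taken from 49997 loci of the RefSeq annotation of GRCm38 (mm10). Of 123349 stretches of UPF1-bound RNA, called clusters, the 172 that lay in these 10 loci on the strand of the gene are described. The assay was enhanced crosslinking and immunoprecipitation (eCLIP), which sequences RNA that copurifies with a protein and compares it with an input made without the pull-down. The protein was UPF1, the RNA helicase of nonsense-mediated mRNA decay, in cultured neural progenitor cells from mouse cortex of genotype Upf2fl/fl, in which both Upf2 copies carry loxP sites. Both libraries are labelled MOCK, a word that the labels leave unexplained, and no age or strain is given. There was 1 immunoprecipitate and 1 input, so no value here has a replicate, no p-value was computed, and differences between cultures cannot be seen. The family was chosen by name with results of these data known, and its clusters were selected on the calls of the deposited list, in which Sdc3 stood near the top by enriched nucleotides. All values below are therefore a description.

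Both families carry long heparan sulfate chains on a core protein and present growth factors, morphogens and adhesion molecules to their receptors. Syndecans cross the membrane and have a short cytoplasmic tail that binds scaffold proteins, while glypicans are held at the outer surface by a glycosylphosphatidylinositol (GPI) anchor and can be released by cleaving it. In the developing cortex they take part in fibroblast growth factor, Wnt and Hedgehog signalling, in axon growth and in synapse formation.

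The deposited list gives every cluster a log2 ratio of immunoprecipitate to input, the fold, with its −log10 p. Clusters that reached 3 on both of these scales were called enriched. Clusters were listed in 8 of the 10 genes, and in 9959 of all 49997 loci. Of these 8 members 5 had an enriched cluster, against 34.0% of the 9659 protein-coding genes with a cluster. That share depends on the number of clusters, which ran from 2 to 72 in these members. It was 9.55% in protein-coding genes with 1 to 4 clusters, 40.6% with 5 to 9, 57.6% with 10 to 19 and 62.7% with 40 or more. Of the 172 clusters 66 were enriched (38.4%), against 11.6% of all clusters. Sdc3 alone held 32 of the 66, Sdc4 16, Gpc1 12, Gpc6 5 and Gpc2 1, while Sdc1, Sdc2 and Gpc5 had none. Both families thus had members with an enriched cluster and members without a call. No cluster lay on the opposite strand of any of the 10 loci. For 7 of them, with 74 clusters, the strand came from RefSeq and the clusters had no part in choosing it.

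**Figure D1:**
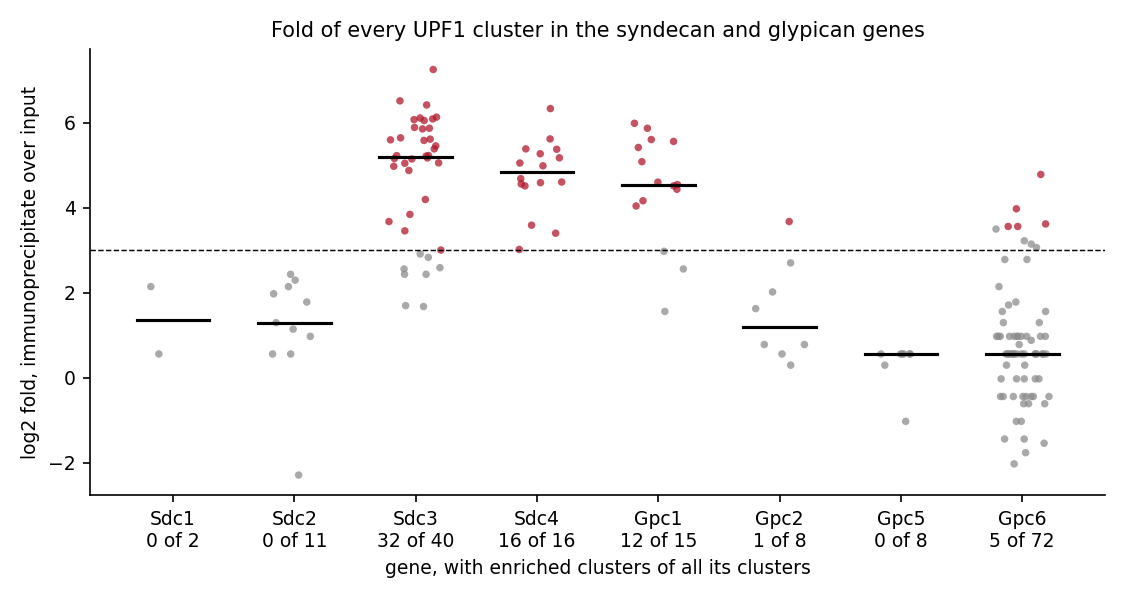
Log2 fold over input (vertical axis) of each of the 172 clusters, by gene, spread sideways for display. Red points are enriched, grey ones are not, black bars are medians and the dashed line is the fold threshold of 3. Sdc3, Sdc4 and Gpc1 have medians of 5.19, 4.84 and 4.55, and the other genes have medians of at most 1.35.

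The reads behind each fold could be rebuilt for 146 of the 147 clusters with a fold above 0, because fold and p move in steps of whole reads. From these reads each fold has an exact 95% interval (Clopper-Pearson), which covers counting error only. Where the input is given as 1 read it may have held none, so sums of reads were also taken with these inputs as 0, an alternative chosen after seeing the data. With 1 input read a cluster needed at least 24 immunoprecipitate reads to pass both thresholds, with 2 it needed 33 and with 3 it needed 49. A cluster with fewer than 24 immunoprecipitate reads could not be called, whatever its fold.

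**Figure D2:**
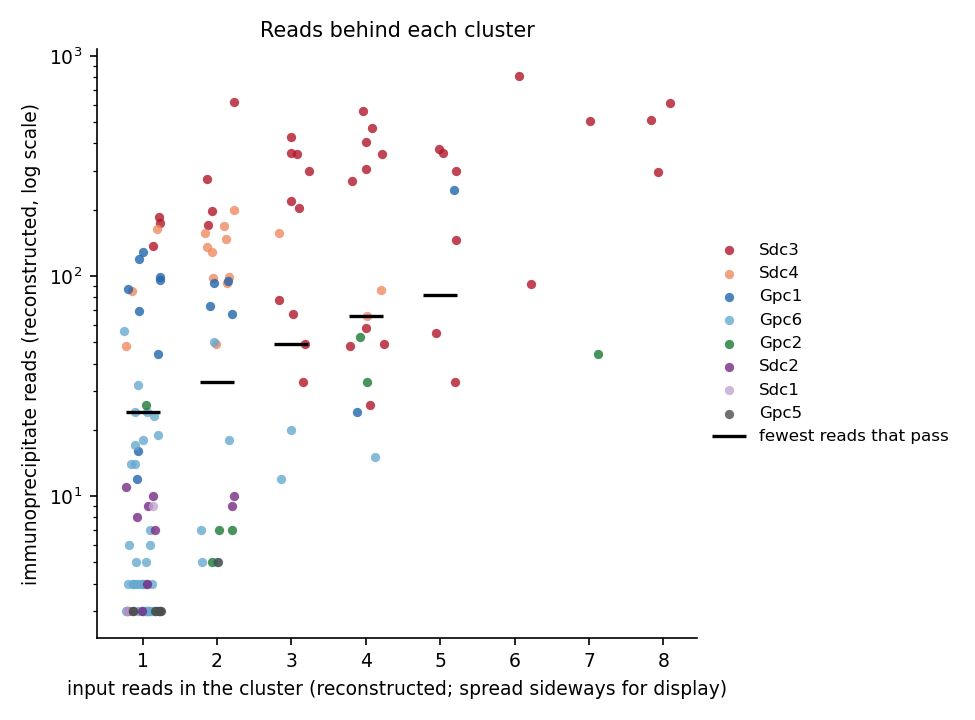
Reconstructed immunoprecipitate reads (vertical log axis) against input reads (horizontal axis) of the 146 rebuilt clusters, coloured by gene. Black ticks mark the fewest immunoprecipitate reads that pass both thresholds at that input. The clusters of Sdc1, Sdc2 and Gpc5 all hold 11 reads or fewer and lie below the tick of 24.

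Among the syndecans, Sdc3 (chromosome 4, 130792537 to 130826318, plus strand) was the most heavily bound. It encodes syndecan-3, the syndecan of neurons and glia, which binds pleiotrophin. Its 40 clusters ran from a log2 fold of 1.68 to 7.25, and the 32 enriched ones covered 1947 nt, rank 2 of the 9959 genes with a cluster. The strongest cluster, at 130823999 to 130824046, held 620 immunoprecipitate reads against 2 input reads, a log2 fold of 7.25 (interval 5.39 to 10.30). The neighbouring cluster, at 130824047 to 130824147, had a fold of 5.58 and the file's highest −log10 p of 400. That value is a cap, so its counts are known only as 1171 against 12 or a common multiple of them.

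The strong clusters of Sdc3 formed 1 stretch at the end of the gene. Between 130822820 and 130826034 lay 29 enriched clusters in a row, with no gap above 365 nt, covering 52.6% of 3215 nt. Their folds ran from 3.84 to 7.25 with a median of 5.58, and the stretch began 3471.5 nt (the midpoint of its first cluster) and ended 327.5 nt before the annotated 3′ end. Binding was spread along this stretch and not held in 1 peak: 25 clusters of the gene had a fold of at least 5. The median was 5.23 for the 5 clusters from 327.5 to 895.5 nt from the end, 5.31 for the 6 from 1307 to 1896.5 nt, and 5.60 for the 21 from 2221 to 4932.5 nt. The last group also holds the clusters at 4932.5, 4802 and 4672 nt, upstream of the stretch, with folds of 3.01, 3.46 and 1.70. The intervals of single clusters are wider than these differences.

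Upstream of that stretch the same gene was bound weakly. A pair of clusters at 4932.5 and 4802 nt from the end had folds of 3.01 (49 reads against 3) and 3.46 (67 against 3). A cluster at 7170 nt reached 3.68 (78 against 3), the only enriched one of 5 between 5000 and 10000 nt, where 8.29% of protein-coding clusters were enriched. At the other end of the gene, 194.5 to 261.5 nt downstream of its annotated start, 3 touching clusters had folds of 2.91 (92 reads against 6), 2.83 (58 against 4) and 2.59 (49 against 4), just under the fold threshold although each had a −log10 p above 4. The 8 clusters more than 5000 nt from the end had a median of 4 input reads, as did those nearer the end. Summed over the 8 clusters more than 5000 nt from the end, 439 immunoprecipitate reads stood against 33 input reads, a log2 fold of 2.71 (interval 2.20 to 3.27). Over the 31 rebuilt clusters nearer the end, those at 4932.5 and 4802 nt included, 10071 reads stood against 121. That was a fold of 5.36 (interval 5.10 to 5.63), and the intervals did not overlap. Per 100 nt of cluster the input held 8.21 reads upstream and 6.92 near the end, while the immunoprecipitate held 109 and 576. Touching clusters can share reads, so intervals on such sums are too narrow and reads per 100 nt can be too high. The reason for the lower fold upstream was not tested.

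Sdc4 (chromosome 2, 164424247 to 164443188, minus strand) encodes syndecan-4, a widely expressed syndecan of focal adhesions. All 16 of its clusters were enriched, as in 1.76% of the 3177 protein-coding genes with at least 10 clusters. They lay between 142.5 and 1488.5 nt from the 3′ end and covered 68.0% of 1422 nt, with no gap above 120 nt. Their immunoprecipitate reads ranged from 48 to 200 with a median of 114, against 1 to 4 input reads. The highest fold was 6.33 (interval 3.84 to 11.65), from 164 reads against 1 at 164424839 to 164424877, and the lowest was 3.02, from 66 against 4. No cluster was listed upstream of these in the Sdc4 locus, whereas Sdc3 had clusters at its start. In nucleotides within enriched clusters Sdc4 had 967, rank 181.

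Sdc1 and Sdc2 had few reads. Sdc2 (chromosome 15, 32920723 to 33034721), the syndecan-2 gene, which acts in dendritic spines, had 11 clusters and none enriched. Its 7 clusters within 1935.5 nt of the 3′ end held 7 to 11 reads each against 1 or 2, with folds from 1.15 to 2.44. The 5 of them with 1 input read had folds of 1.78, 1.98, 2.15, 2.30 and 2.44. The other 4 clusters lay 81319 nt or more from the end. In 3 of them there were 3 or 4 reads against 1, and the fourth had a fold of -2.29. Sdc1 (chromosome 12, 8771396 to 8793716), the syndecan-1 gene, known from epithelia and plasma cells, had 2 clusters with 9 and 3 reads against 1 each, and folds of 2.15 and 0.56.

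The best single cluster of Sdc2 had an interval of -0.35 to 7.86, which includes the 7.25 of Sdc3. The 7 clusters near the 3′ end of Sdc2 held 64 reads against 9, a fold of 1.81 (interval 0.79 to 2.999), against intervals of 5.10 to 5.63 for Sdc3 and 4.28 to 5.30 for Sdc4. With inputs of 1 read taken as 0, Sdc2 had 2.98 (interval 1.55 to 4.895), still below Sdc3 (5.13 to 5.67) but overlapping Sdc4 (4.39 to 5.46), so its place below Sdc4 is not resolved. None of the clusters of Sdc2 touched another, although a read longer than the gap between 2 clusters could still be counted in both. Sdc2 also had fewer input reads per 100 nt of cluster near its end, at most 2.19, than Sdc3 with 6.92 and Sdc4 with 3.52. For Sdc1 the sum of 12 reads against 2 gave 1.56 (interval -0.61 to 4.76), which overlaps that of Sdc4, and both its input reads may be 0.

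**Figure D3:**
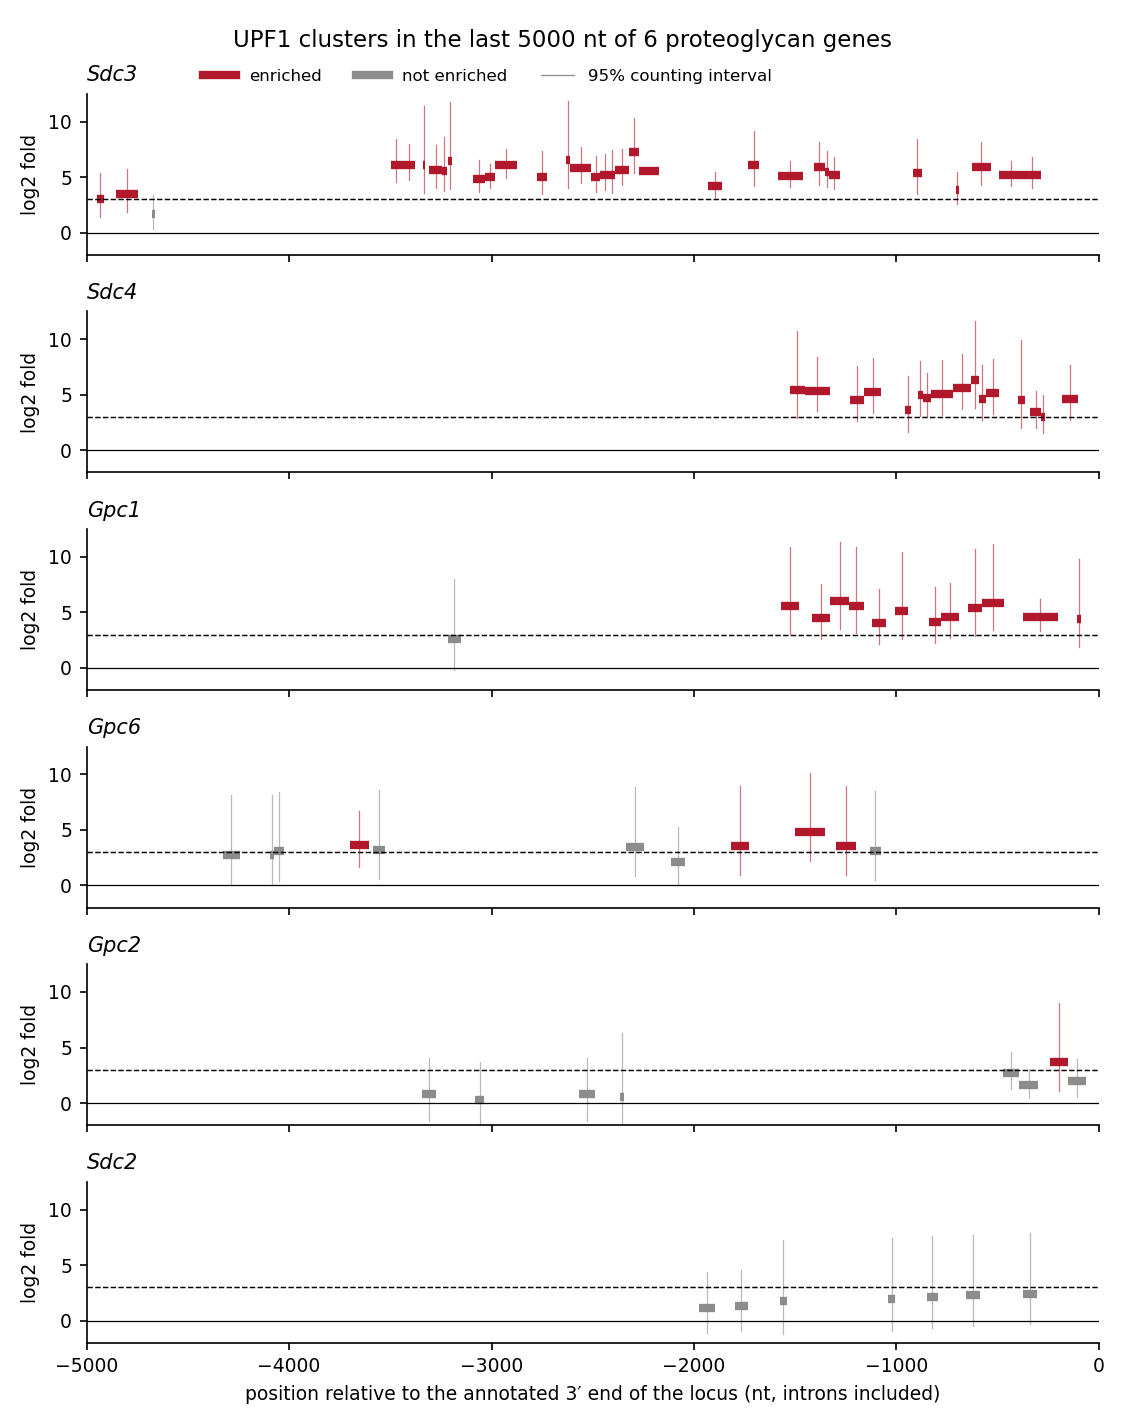
Log2 fold over input (vertical axis) of clusters in the last 5000 nt of 6 genes, by distance from the annotated 3′ end (horizontal axis, introns included). Thick bars span each cluster, red if enriched, thin lines are 95% counting intervals and the dashed line is a fold of 3. Enriched clusters cover 52.6% of the stretch of Sdc3 that begins at 3471.5 nt. They cover 68.0% and 67.4% of those of Sdc4 and Gpc1 from 1488.5 and 1526 nt. Sdc3 has further enriched clusters at 4802 and 4932.5 nt, while the 7 clusters of Sdc2 stay at or under 2.44.

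Among the glypicans, Gpc1 (chromosome 1, 92831645 to 92860211) had the most enriched clusters. It encodes glypican-1, the main glypican of neurons and of the early forebrain. Of its 15 clusters 12 were enriched, all within 1526 nt of the 3′ end, where they covered 67.4% of 1485 nt. Their immunoprecipitate reads ranged from 44 to 247 with a median of 94, against 1 to 5 input reads. The highest fold was 5.99 (interval 3.48 to 11.30), from 129 reads against 1 at 92858886 to 92858975, and the lowest was 4.04, from 67 against 2. The enriched clusters covered 1001 nt, rank 150, and 7 of the 12 had 1 input read. With at least 2 input reads required, 5 were called.

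As in Sdc3, binding was lower at the start of Gpc1. Clusters 210 and 354.5 nt from the annotated start had folds of 1.56 (24 reads against 4) and 2.98 (16 against 1), and a cluster 3183.5 nt from the 3′ end had 2.56 (12 against 1). The first pair summed to 40 reads against 5, a fold of 1.98 (interval 0.64 to 3.68). The 13 clusters in the last 5000 nt held 1230 against 21, a fold of 4.85 (interval 4.23 to 5.55), and the intervals did not overlap. With inputs of 1 read taken as 0 they were 0.83 to 4.24 and 4.76 to 6.45. The 2 clusters at the start and the 2 nearest the 3′ end also lay inside a neighbouring locus, for the latter Ankmy1, which RefSeq puts on the minus strand while the clusters were on the plus strand.

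Gpc6 (chromosome 14, 116924920 to 117979529), the gene of glypican-6, which astrocytes release to promote synapses, had the most clusters of the family, 72, in a locus of 1054610 nt. Its 11 clusters in the last 5000 nt had folds from 2.15 to 4.78 and held 14 to 56 reads against 1 or 2. Of these 4 were enriched, and 4 others had a fold of at least 3 without the p. The best, at 117978028 to 117978177, held 56 reads against 1, a fold of 4.78 (interval 2.25 to 10.11). The nearest to passing held 23 reads against 1, with a fold of 3.50 and a −log10 p of 2.79, while 24 reads against 1 gave 3.56 and 3.02 and passed. With a −log10 p of at least 5, 2 of the 5 enriched clusters of Gpc6 were called, and with a fold of at least 4 or an input of at least 2 reads, 1 was.

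The other 61 clusters of Gpc6 were spread over the locus 69323.5 nt or more from the 3′ end. Their median fold was 0.56, the value of 3 reads against 1, and 23 of them had a fold at or below 0. The 38 rebuilt ones summed to 213 reads against 48, a fold of 1.13 (interval 0.67 to 1.61), against 3.39 (interval 2.59 to 4.32) for the 11 near the end. Since clusters at or below 0 could not be rebuilt, the first value is too high. Of the inputs, 32 of 38 far from the end and 9 of 11 near it were 1 read. With these taken as 0 the folds were 2.71 (interval 1.98 to 3.54) and 5.09 (interval 3.72 to 6.98), which again did not overlap.

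A single internal cluster of Gpc6 stood out from these 61. At 117348184 to 117348380 (197 nt), 631247 nt from the 3′ end and inside no other annotated locus, 32 reads stood against 1, a fold of 3.98 (interval 1.39 to 9.32) with a −log10 p of 4.31. The other 60 reached at most 1.78. Of protein-coding clusters 20000 nt or more from the 3′ end, 0.48% were enriched. This call was lost with a −log10 p of at least 5, with a fold of at least 4 and with an input of at least 2 reads.

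Gpc2 (chromosome 5, 138273657 to 138280026, minus strand) encodes glypican-2, a glypican of the developing nervous system found on growing axons. It had 8 clusters and 1 enriched, with 26 reads against 1 and a fold of 3.68 (interval 1.07 to 9.03), at 138273807 to 138273899. That call was lost with a −log10 p of at least 5, a fold of at least 4 or at least 2 input reads. The 3 other clusters within 433.5 nt of the 3′ end held more reads and more input, with 53 against 4, 44 against 7 and 33 against 4, and folds of 2.70, 1.63 and 2.02. The 4 clusters farther in held 3 to 7 reads, with folds of 0.30 to 0.78. All 8 lay inside Stag3, which RefSeq puts on the opposite strand, and Gpc2 drops out when only clusters inside a single locus are kept.

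The 8 clusters of Gpc2 held 4.03 input reads per 100 nt of cluster, beside 3.52 in Sdc4 and 1.97 in Gpc1 near its end. With inputs of 1 read taken as 0 these were 3.68, 3.21 and 1.22. Its immunoprecipitate reads per 100 nt were 31.2, against 195 in Sdc4 and 115 in Gpc1. The fold of its summed reads, 178 against 23, was 1.93 (interval 1.30 to 2.62), and the intervals of Sdc4 (4.28 to 5.30) and Gpc1 (4.23 to 5.55) lay above it. They also did so with inputs of 1 read taken as 0, when Gpc2 had 2.06 (interval 1.40 to 2.79). Cluster borders are taken to follow the immunoprecipitate and touching clusters can share reads, so reads per 100 nt are not expression levels. The reason for the low fold of Gpc2 was not tested.

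Gpc5 (chromosome 14, 115092201 to 116525192) encodes glypican-5 and lies beside Gpc6 on the same chromosome and strand. Its locus of 1432992 nt held 8 clusters, none nearer than 267005 nt to the 3′ end. Of these, 6 held 3 reads against 1 with a fold of 0.56, 1 held 5 against 2, and 1 had a fold of -1.02. The first 7 summed to 23 reads against 8, a fold of 0.50 (interval -0.71 to 1.87), or 2.50 (interval 0.48 to 5.63) with inputs of 1 read taken as 0. Leaving out the 11 near its end, Gpc6 had 5.78 clusters per 100 kb of locus, and Gpc5 had 0.558. Gpc3, whose loss causes an overgrowth syndrome in humans, and Gpc4, a glypican of neural progenitors and astrocytes, are neighbours on chromosome X (52272426 to 52613974 and 52051007 to 52164923). Neither had a cluster, while chromosome X held 3403 clusters in the file and 346 of its genes had at least 1. Low expression and a lack of binding cannot be told apart for a gene without a cluster, since the file holds no expression level.

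In order of their highest fold the genes were Sdc3 (7.25), Sdc4 (6.33), Gpc1 (5.99), Gpc6 (4.78), Gpc2 (3.68), Sdc2 (2.44), Sdc1 (2.15) and Gpc5 (0.56). The counting intervals of all neighbours in this order overlap, so it is not resolved by single clusters. By summed reads in the last 5000 nt, Sdc3 (5.36), Gpc1 (4.85) and Sdc4 (4.77) have overlapping intervals, and so, narrowly, do Gpc6 (3.39) and Gpc2 (1.93). Overlapping intervals do not show equal folds, and the folds of 2 genes were not compared directly. The interval of Gpc6, 2.59 to 4.32, reaches those of Gpc1 and Sdc4 and lies below that of Sdc3, but with inputs of 1 read taken as 0 it becomes 3.72 to 6.98, which includes that of Sdc3 and lies above that of Gpc2 (1.40 to 2.79). The place of Gpc6 in this order is therefore not resolved. Immunoprecipitate reads per 100 nt of enriched cluster had a median of 626 in Sdc3, 181 in Sdc4, 117 in Gpc1, 28.0 in Gpc2 and 26.7 in Gpc6, where all enriched clusters had 74.7. Sdc3 thus had more reads than Sdc4 and Gpc1 on both sides of the ratio, while the intervals of their summed folds overlapped.

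The enriched clusters of the members lay near 3′ ends, 97.0% within 5000 nt, as did 91.8% of all enriched clusters of protein-coding genes. Of the 89 clusters within 5000 nt of a 3′ end 64 were enriched (71.9%), against 34.4% of such clusters in all protein-coding genes. Of the 83 farther ones 2 were (2.41%), against 1.39%. Of the 64, Sdc3 alone held 31, Sdc4 16 and Gpc1 12, some of them touching, so the 71.9% describes mainly these genes. The median distance of the 66 enriched clusters was 1358 nt. Distances are genomic, and exons, stop codons and untranslated regions were not used here. The members did not share size: enriched clusters occurred in loci from 6370 nt (Gpc2) to 1054610 nt (Gpc6). Genes with many clusters were called more often. An enriched cluster was found in 9.55% of protein-coding genes with 1 to 4 clusters (as Sdc1 had) and 40.6% with 5 to 9 (Gpc2 and Gpc5). The share was 57.6% with 10 to 19 (Sdc2, Sdc4 and Gpc1) and 62.7% with 40 or more (Sdc3 and Gpc6).

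The genes closest to the members in nucleotides within enriched clusters came from unlike families. Ntrk2, the TrkB receptor (2517 nt), was the only gene above Sdc3, and Ttyh3 (1885 nt) and Adcyap1r1, the PACAP receptor (1883 nt), followed it. Around Sdc4 stood Gpt2 (971 nt), Dtx4 (970 nt), Nrxn2 (962 nt) and Cd164 (960 nt). Around Gpc1 stood Kctd17 and Reep1 (1002 nt each), Trp53inp2 (1000 nt) and Capn5 (999 nt). Around Gpc6 were Zkscan1 (634 nt), Elovl5 (631 nt), Arhgdia and Mcu (630 nt each), and around Gpc2 were Zfp423 (94 nt), Eef2k, Ptdss2 and Rps6ka3 (93 nt each).

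Genes that act with syndecans and glypicans were grouped into 4 lists. The highest fold per gene had a median of 4.23 over the 8 members with a cluster and 2.56 over all protein-coding genes with one. A highest fold can rise with the number of clusters in a gene, and these medians are not matched for it. Enzymes that build and edit heparan sulfate had 24 of 37 genes with a cluster and 7 with an enriched one (29.2%, against 34.0% of protein-coding genes), and a median highest fold of 2.31. The median gene of this list had 7 clusters, a class with 40.6% called. Ndst1, which starts sulfation of the chain, reached 5.70 (interval 4.14 to 7.99) from 318 reads against 3, with 8 of 10 clusters enriched. Extl3, which starts chain growth, reached 5.19 (interval 2.66 to 10.51), Sulf2, which removes sulfate at the cell surface, 5.06 (interval 2.54 to 10.39), and Fam20b, which phosphorylates the linker xylose, 4.73 (interval 3.16 to 7.02). Xylt1, which adds that xylose, had 175 clusters and Ext1, a chain polymerase, 124, none enriched and with highest folds of 2.44 and 1.98. Papss1, which makes the sulfate donor, had 18 clusters and reached 2.19. This list is the least stable of the 4, with 4 genes called at a fold of at least 4, a −log10 p of at least 5 or an input of at least 2 reads.

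Other proteoglycan core proteins had an enriched cluster in 10 of the 13 genes with a cluster (76.9%), of 21 listed, and a median highest fold of 4.33. Ncan, the chondroitin sulfate proteoglycan neurocan of brain matrix, reached 7.47 (interval 5.61 to 10.52) from 720 reads against 2, with 28 of 29 clusters enriched. Aplp2, a relative of the amyloid precursor protein, reached 6.36, Spock2, a testican, 5.86, and Cd44, the hyaluronan receptor, 5.28. Cspg5, Nrp1 and Hspg2, the perlecan gene, had no enriched cluster and reached 2.88, 2.88 and 2.15. The median gene of this list had 20 clusters, a class of genes called more often than most (61.8% with 20 to 39 clusters).

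Partners and release enzymes had an enriched cluster in 8 of 13 genes with a cluster (61.5%), of 16 listed, with a median of 3.86, and 5 with a fold of at least 4. The share is 34.0% over protein-coding genes and 57.6% over those with 10 to 19 clusters, the class of the list's median gene with 11. Pgap1, which remodels the GPI anchor that glypicans carry, reached 6.03 (interval 3.53 to 11.35) with 10 of 21 clusters enriched. The kinase Src reached 5.45, Sdcbp, the gene of syntenin that binds syndecan tails, 4.86, and Actn4, an actinin, 4.83. Prkca, a kinase activated by syndecan-4, reached 2.88, with no enriched cluster among 102, while Mmp14, a sheddase, and Pigk, of GPI anchor attachment, had 4 clusters each and reached 2.56 and 1.30.

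Heparan sulfate-binding ligands and receptors had an enriched cluster in 9 of 23 genes with a cluster (39.1%), of 32 listed, with a median of 2.68. That share is near the 34.0% of protein-coding genes and below the 57.6% of those with 10 to 19 clusters, the class of the list's median gene with 16. Ptprf and Ptprs, receptor phosphatases that bind heparan sulfate, reached 6.72 (interval 4.23 to 12.03) and 5.94 (interval 4.71 to 7.57). Wnt7b, a Wnt ligand, reached 6.37 with 16 of 23 clusters enriched, and Fgfr3, a fibroblast growth factor receptor, 5.93. The syndecan-3 ligand gene Ptn reached 1.98, with no enriched cluster among 82. Robo2 and Robo1, receptors for Slit proteins, had 55 and 20 clusters, none enriched, and reached 2.15 and 2.68.

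**Figure D4:**
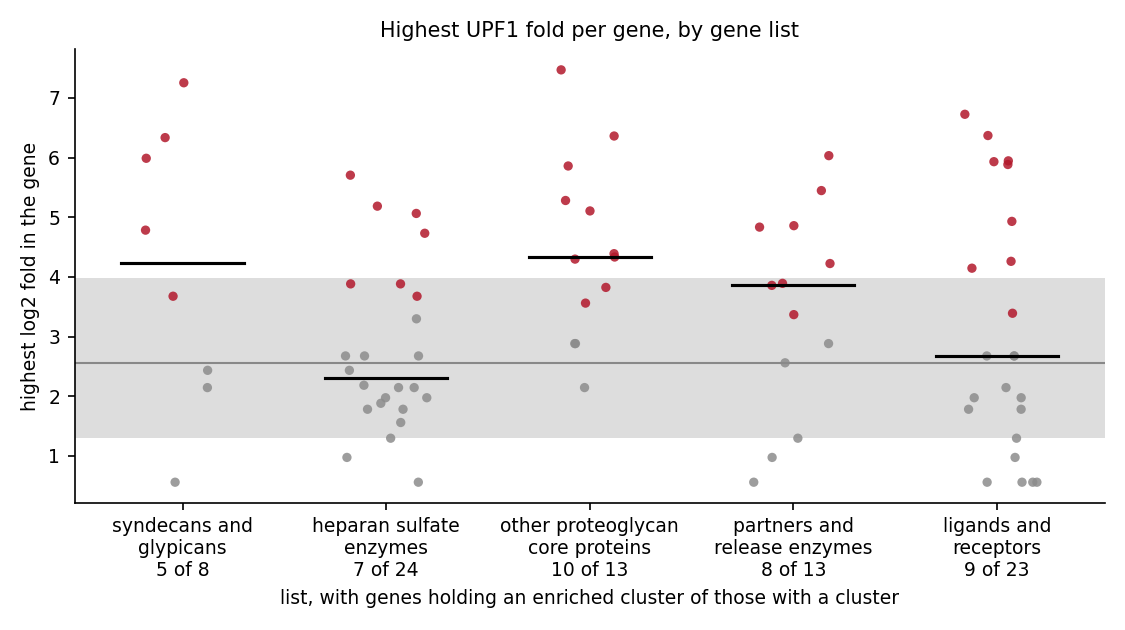
Highest log2 fold (vertical axis) of each gene with a cluster, for the syndecans and glypicans and 4 lists of related genes. Red points have an enriched cluster, grey ones do not, black bars are list medians, and the grey band and line are the quartiles (1.30 and 3.98) and median (2.56) of all protein-coding genes with a cluster. The medians of the members (4.23) and of other core proteins (4.33) lie above the band, and that of the heparan sulfate enzymes (2.31) lies within it. The values are not matched for the number of clusters per gene.

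The labelled cell type was checked on marker genes by the presence of clusters, which is not an expression level. All 9 progenitor markers had a cluster. An enriched one was found in 6 of them (66.7%), against 34.0% of protein-coding genes with a cluster. The share was 40.6% with 5 to 9 clusters, the class of the list's median gene with 9. The 6 were Slc1a3 (24 of 29 clusters enriched), Msi1 (13 of 26), Sox9 (12 of 15), Sox2 (2 of 11), Nes (2 of 9) and Fabp7 (2 of 9). Pax6, Vim and Hes1 had no enriched cluster. Clusters were also listed for 3 of 4 astrocyte, 4 of 5 neuronal and 2 of 4 oligodendrocyte markers, with an enriched one in 3, 2 and 2 genes. Among astrocyte markers, all 9 clusters of Gfap and all 21 of Gja1 were enriched, 1 of 15 was in Aldh1l1, and Aqp4 had no cluster. The median highest fold was 6.004 for astrocyte, 5.155 for oligodendrocyte, 3.625 for neuronal and 3.52 for progenitor markers with a cluster. None of 4 microglial and 2 blood markers had a cluster, and of 4 vessel and fibroblast markers only Pdgfrb did, with 1. Which of the cells in culture the Sdc3, Sdc4 and Gpc1 RNA came from was not tested.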

How the data were processed

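UPF1 eCLIP of cortical neural progenitor cells was available as 1 list of stranded clusters. The authors deposited 2 values per cluster, a log2 ratio of immunoprecipitate to input (the fold) and a −log10 p. The file has no header, and these units were read from its values and the customary layout. The deposited −log10 p is 0 where the fold is not above 0 and is capped at 400. Per the submitters' processing notes the build was mm10, and the tools included STAR, cutadapt and UMI-tools. How clusters were called, filtered and scored is not given in the sources used here. Clusters were taken to be called on the immunoprecipitate, after which the list is named. RNA without enough bound reads would then be missing, and a cluster's borders would follow that library. The file gives no library totals, so depth is known only per cluster.

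Clusters were placed in the RefSeq (GRCm38.p6) locus that held over 50% of their bases on the same strand. The strand came from RefSeq promoters where listed, and otherwise from at least 80% of 2 or more clusters inside no other locus (Sdc2, Gpc1 and Gpc6). Where several loci were left, the only protein-coding one was taken. Read counts were rebuilt from fold and p by reading the commonest fold, 0.56, as 3 reads against 1, which puts the immunoprecipitate at 2.03 times the input. The p was taken as an exact binomial test with fewer than 5 reads on either side and otherwise as a chi-square test with continuity correction, so −log10 p was not used to rank clusters. A match needed the p within 0.05 or 1%, and 99.6% of 90350 clusters with a fold above 0 were rebuilt. The rebuilding was tested on drawn counts turned into fold and p by the same formulas. That test cannot show whether the deposited p follows these formulas or whether 0.56 stands for 3 reads against 1. The placement was tested on made-up clusters and loci. Calculations used Python 3.11.15, SciPy 1.17.1 and pandas 2.3.3.

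The members and gene lists were chosen with earlier results of these data known. Named genes were all members, the 4 highest enriched and the 3 with most clusters but none enriched of each list, and the 2 genes on either side of a member in the ranking by enriched nucleotides. Alternatives covered the fold and p thresholds, input of at least 2 reads, overlapping loci, the overlap that counts, merging of touching clusters, and mean or summed folds. Inputs of 1 read taken as 0 were added after seeing the data. No DNA sequence is shown, because no sequence of the clusters was used here.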

Additional observations from a re-analysis of the deposited data

How the results depend on the processing

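The number of members with an enriched cluster was 5, or 4 (without Gpc2) with a fold of at least 4, a −log10 p of at least 5, an input of at least 2 reads, or clusters inside a single locus only. The 66 enriched clusters became 39 when touching clusters were merged, by construction, with 18 in Sdc3 and 7 in Sdc4. They ranged from 47 to 72 under the other alternatives. Heparan sulfate enzymes fell from 7 to 4 called genes with a fold of at least 4, a −log10 p of at least 5 or an input of at least 2, and partners from 8 to 5 with a fold of at least 4. Gpc1 fell from 12 to 5 enriched clusters with an input of at least 2. The median highest fold of 4.23 was 3.62 with an input of at least 2, 1.95 from summed reads and 1.89 as a width-weighted mean. For Sdc3 these gave 7.25, 5.07 and 4.90, and for Gpc6, whose many far clusters enter them, 3.62, 1.98 and 0.90. The median distance to the 3′ end stayed between 1281 and 1386 nt. No paired analysis was possible because there was 1 library of each kind. With inputs of 1 read taken as 0, added after seeing the data, the folds of summed reads moved beyond their intervals for Gpc6 near the 3′ end (3.39 to 5.09) and far from it (1.13 to 2.71) and for Gpc5 (0.50 to 2.50). No rebuilt cluster of Sdc1, Sdc2 or Gpc5 held the 24 reads that a call needs. Those not rebuilt had folds of -2.29 (Sdc2) and -1.02 (Gpc5), below the threshold at any depth.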
